A study of Drosophila melanogaster with 8 samples.

Results

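The regions described here held an anti-GFP CUT&RUN peak in every one of 8 libraries of Drosophila melanogaster wing imaginal discs, with or without a GFP tag and with or without damage. CUT&RUN releases the DNA around an antibody with a tethered nuclease, and a peak is a stretch where the released fragments pile up above the coverage expected locally. Peaks of the 8 lists that shared at least 1 bp on the arms 2L, 2R, 3L, 3R, 4 and X were merged, and a region was a member if each list contributed a peak to it. Of 9086 merged regions, 586 were members, or 6.45%. Members were thus chosen by the peak calls themselves, so their presence in tagged and untagged discs is the definition and not a result.

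The Zelda-GFP larvae carried GFP on the endogenous transcription factor Zelda, and the wild-type larvae, w1118 per the series text, carried no tag. Undamaged discs came from normally developing larvae and damaged discs from larvae 2 days after damage. All 8 libraries were made with the same rabbit anti-GFP antibody, 2 per combination of genotype and condition. The labels give neither the method of damage nor the number of discs pooled, and do not say whether replicates came from separate larvae, so p-values measure only the spread between these libraries.

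Zelda is a pioneer factor, a DNA-binding protein able to bind its sites in closed chromatin, known above all for opening the genome of the early fly embryo. Untagged larvae contain no GFP, so a peak there does not require the epitope. The heterochromatin around fly centromeres is gene-poor and made largely of repeated sequence, and histone and ribosomal RNA genes are kept as tandem arrays of near-identical copies. Reads from identical copies cannot be assigned to one of them, and how such reads were treated is not given in the sources used here.

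The lists held 1698 to 3908 peaks on the arms. Background coverage, the lowest expected coverage a list records and a stand-in for depth, was 32.6 to 52.3 fragments per base. Between 738 and 824 peaks of each library lay in member regions. They made up 44.8% and 24.6% of the arm peaks in the wild-type undamaged libraries, 32.3% and 20.9% in the wild-type damaged ones, 26.1% and 45.7% in Zelda-GFP undamaged discs and 20.8% and 20.3% in Zelda-GFP damaged discs. The 2 shortest lists had the highest shares. Wild-type undamaged replicate 2 stood apart within the members. Its fold ranks over the 586 members correlated with those of the other libraries at a Spearman rho of 0.614 to 0.691, where all other pairs had at least 0.721, and its summits lay 134 to 180.5 bp (median) from theirs. It was also the library most often missing from regions called in the other 7, in 72 of 219 cases, and without it 667 regions qualified.

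Member regions lay next to the centromeres far more densely than along the rest of the arms. In round windows at the centromere side (2L from 22 Mb, 2R to 6 Mb, 3L from 23 Mb, 3R to 5 Mb and X from 21 Mb), which hold 15.2% of the length of the long arms, there were 315 members, or 15.6 per Mb. The remaining 112 Mb held 263 members, or 2.34 per Mb. Members were 13% of all merged regions inside the windows and 4.01% outside them. With chromosome 4, which had 8 members, 323 members or 55.1% (95% exact binomial interval 51 to 59.2) were pericentric or on 4, against 27.7% of all regions. The share was 57.1% in regions called in 7 libraries, 54.5% in 6 and 55.5% in 5, so it was not particular to the members. Regions are not replicates, so such intervals cover counting error only.

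**Figure D1:**
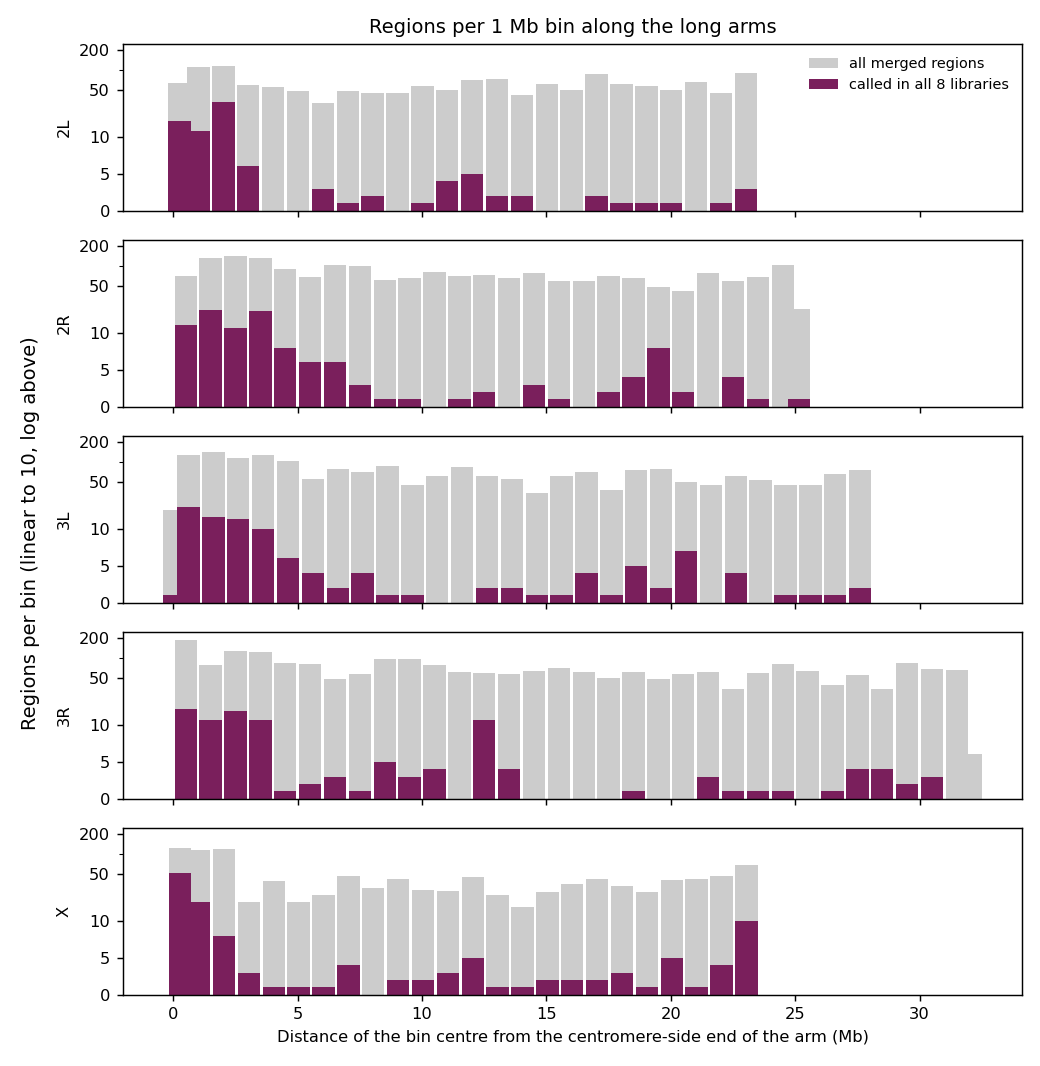
Number of merged regions (grey) and of regions called in all 8 libraries (purple) per bin of 1 Mb, against the distance in Mb of the bin centre from the centromere-side end of each long arm; the vertical axis is linear to 10 and logarithmic above. Members crowd into the leftmost bins of every arm, up to 52 in the last bin of X, while the median bin over all arms holds 2.

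The arms differed in how the members were divided. X had the most, 133, which is 12.2% of its merged regions, and its pericentric window alone had 79, or 31.1 per Mb. On 2R 82 of 122 members were pericentric, on 3L 67 of 113 and on 3R 58 of 113. On 2L, whose window is the shortest at 1.51 Mb, it was 29 of 97, and 33 of the other members there lay in the histone locus. Members also lay at the ends of several arms. The first region of 2R began at base 91, that of 3L at base 118 and that of X at base 1858, and on 2L, 2R and 4 no called region or annotated gene lay beyond the last member. The arm lengths themselves were not used here.

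Members clustered along the arms. Chained at gaps of at most 50 kb, the 586 members formed 269 groups, of which 171 were single regions and 23 were chains of 5 or more. Those 23 chains contained 236 members, or 40.3%, and 10 of them spanned no annotated gene at all. Of 580 gaps between neighbours, 224 were no longer than 10 kb, whereas 35 exceeded 1 Mb. The median gap was 32.6 kb, against 4.93 kb among all merged regions, which are far more numerous. No clustered share of all merged regions is set beside that of the members, so clustering is not shown to be particular to them. Of 138 bins of 1 Mb, 26 held no member, and the 19 bins with 10 or more held 340 members, or 58.0%.

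The longest chain was at the centromere side of X, with 50 members between 23205815 and 23536580. Its distal part is the ribosomal RNA locus, annotated with copies and pseudogenes of the 18S, 28S, 5.8S and 2S genes that encode the structural RNAs of the ribosome. In that part, 15 of 28 merged regions were members, and they overlapped 9 of 17 annotated rRNA genes and pseudogenes. The region at X 23280998 to 23282974, over pre-rRNA:CR45856 and 18SrRNA-Psi:CR45861, had folds of 4.68 and 3.86 in wild-type undamaged discs, 4.52 and 4.91 in wild-type damaged discs, 5.41 and 5.04 in Zelda-GFP undamaged discs and 4.80 in both Zelda-GFP damaged libraries. The folds here and below are the authors' own values for the best peak of a list in the region, and nothing places the lists on a common scale. The folds ran from 3.86 to 5.41 at this region, which was chosen after its values were seen.

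The second chain was the histone locus on 2L, where a unit of the 5 replication-dependent histone genes is repeated. Its 33 members lay between 21405683 and 21543298, and 65 regions of any kind were called there. They overlapped 14 of 23 His1 genes (the linker histone), 13 of 20 His2A, 15 of 23 His2B, 10 of 23 His3 and 12 of 22 His4 genes, the last 4 encoding the core of the nucleosome. Across all annotated genes on the arms 335 of 17673 overlapped a member, or 1.9%, and among protein-coding genes 206 of 13911, or 1.48%. The histone families thus had 43.5% to 65.2% of their copies overlapped. The 33 members overlapped 68 of the 119 histone genes and pseudogenes of the locus, so neighbouring genes shared regions.

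The spacing of His1 starts had a median of 5045 bp, and some places within this unit held summits in several of 21 copies. Of 288 summits in member regions that could be placed in a unit, 32 lay 2400 to 2499 bp after a His1 start. This is just beyond His2A, and they came from all 8 libraries but from 5 of the 21 copies. Another 30 lay at 900 to 999 bp, at the end of His1, from 7 libraries and 6 copies. At 3200 to 3299 bp, just before His3, lay 17, from 8 libraries and 4 copies. A member holds a peak of every library, so the spread over libraries is largely set by the choice of members. These 3 intervals of 100 bp, the fullest of 51 and named for that reason, held 27.4% of the placed summits. His1 bodies contained between 6 and 11 summits per library, His4 bodies 2 or 3.

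**Figure D2:**
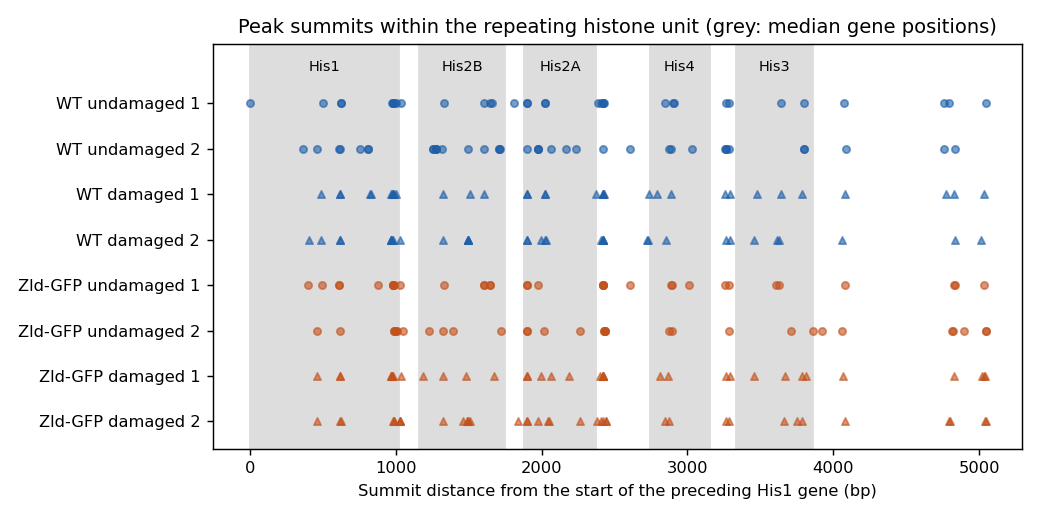
Distance in bp from the start of the preceding His1 gene to each peak summit in the member regions of the histone locus, 1 row per library (WT, wild type; Zld-GFP, Zelda-GFP; the number is the replicate), with the median positions of the 5 genes in grey. Summits pile up near 900 to 1000 bp and 2400 to 2500 bp, in 6 and 5 of 21 unit copies.

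Within the members, the histone locus was low in fold although its coverage was high. The median pileup over background was 9.94 there, and the expected coverage was 5.54 times background, with a median fold of 1.97. Over the 223 members of the euchromatic arms these values were 2.58, 1.11 and 2.20. The rRNA locus had a median pileup of 13.7 times background and a median fold of 3.79. The locally expected coverage, by which pileup is divided to give fold, was more than 2 times the background at 16.4% to 21% of the members per library. Among all arm peaks it was so at 4.61% to 13.1%.

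A further array was that of the 5S rRNA genes on 2R, which encode the small RNA of the large ribosomal subunit. All 7 merged regions there were members, running from 19729544 to 19766297, and they overlapped 90 of the 96 5S rRNA genes. The region at 19742875 to 19759284 was 16410 bp wide, the second widest of all members. Its folds were 3.26 and 3.28 in wild-type undamaged discs, 2.81 and 2.85 in wild-type damaged discs, 3.60 and 2.82 in Zelda-GFP undamaged discs, and 2.91 and 3.54 in Zelda-GFP damaged discs. The wild-type damaged libraries lay below the wild-type undamaged ones, while tagged and untagged libraries overlapped.

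Few tRNA, snRNA, snoRNA or miRNA genes were near any call. None of 290 tRNA genes, 32 snRNA genes, 269 snoRNA genes or 260 miRNA genes on the arms overlapped a member region, but a region called in any library overlapped just 5, 4, 5 and 10 of them. Of 54 genes typed only as ncRNA, 12 (22.2%) overlapped a member and 23 (42.6%) a region called in any library. Over all genes these shares were 1.9% and 27%. Of the 14 Ste genes, a testis-expressed family that in males is silenced by piRNAs, 1 was overlapped, SteXh:CG42398 at the tip of X, while 12 were overlapped by a region called in some library. The region at X 1858 to 3628 opened a chain of 8 members that ran to 113971.

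Members of further chains overlapped few or no genes. Between X 22204462 and 22383657, 15 of the 17 merged regions were members, and none overlapped any of the 8 protein-coding genes in the span. On 2L, 10 members lay between 22388821 and 22484681 with no gene in the span. On 3R, 10 members lay between 12468840 and 12500902, where the noncoding lncRNA:alphagamma-element:CR32865 was the only gene. That element lies beside the Hsp70B heat shock genes, and of 12 heat shock genes listed none overlapped a member and 4 overlapped a region called in any library. Over all protein-coding genes 1.48% overlapped a member, so none of 12 is close to that share. The piRNA source lncRNA:flam, which silences transposons in the ovary, held 2 members among 53 merged regions. They lay at X 21737524 to 21739409 and 21772708 to 21773796. In the pericentric window of X, 22% of the merged regions were members, so flam held few for its number of regions.

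A few very long genes of heterochromatin carried the most members per gene. Myo81F, an unconventional myosin gene of 1966 kb on 3R, overlapped 23 members among 187 merged regions, and Pzl, a Piezo-like channel gene of 709 kb on the same arm, overlapped 12 among 81. CG17684 on 2R had 8 among 54 over 396 kb, DIP-lambda, an immunoglobulin-domain receptor gene, had 6 among 31 over 379 kb, and lovit had 4 among 39 over 434 kb. Members were 13% of all pericentric regions, and the counts in Myo81F, Pzl, CG17684 and lovit are near that share. Of 20 listed genes known from pericentric heterochromatin, 5 overlapped a member, namely rl, vtd, Parp1, Snap25 and Dbp80, and 15 overlapped a region called in any library. The share over all protein-coding genes was 1.48%. Each overlapped 1 member.

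The highest folds among the members were in 3 pericentric regions, which took the first 3 ranks in every library. The first lay in Pzl, at 3R 3169584 to 3170370, with folds of 28.9 and 22.5 in wild-type undamaged discs, 23.7 and 25.3 in wild-type damaged discs, 27.1 and 26.0 in Zelda-GFP undamaged discs, and 24.6 and 29.1 in Zelda-GFP damaged discs. The second, at 2R 1825697 to 1826686, had folds from 22.5 to 26.8 and lay 39394 bp from the nearest protein-coding gene, CG17684. The third, at 2L 23512796 to 23513696, had folds from 19.6 to 24.4 and was the last region called on that arm. The 4 tagged and the 4 untagged libraries overlapped in all 3 regions, as did the damaged and the undamaged ones, and the summits of the 8 libraries fell within 50, 50 and 65 bp of each other. Pileup varied more than fold. At the 2R region it was 552 and 85.1 times the background in the wild-type undamaged libraries, 220 and 234 times in the wild-type damaged ones, and between 257 and 429 times in the Zelda-GFP libraries.

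The next highest regions had folds well below these. At X 23455405 to 23456820 they ran from 7.96 to 12.1, and at X 23261603 to 23262648, over 28SrRNA-Psi:CR41609, from 6.30 to 11.2. The region at 3L 23848932 to 23849645 in CG40470 had 6.72 to 9.66, and that at X 22362449 to 22364242, outside any gene, 5.27 to 9.65. A second region in Pzl, at 3R 3033322 to 3033773, had 5.22 to 16, and the region at 2R 1097712 to 1098412 in rl, the ERK kinase gene of the receptor tyrosine kinase pathway, had 4.76 to 8.2. The only euchromatic region among the leading 10 lay in nAChRalpha3, a neuronal acetylcholine receptor subunit gene, at X 8293631 to 8296173. Its folds were 8.50 and 8.74, 7.11 and 8.19, 7.30 and 5.90, and 6.49 and 6.21 in the groups in the order used above, and its 8 summits lay within 2 bp.

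Outside the pericentric windows, chromosome 4 and the arrays, 223 members remained, 3.44% of the 6487 regions there. Of these, 121 (54.3%) overlapped a protein-coding gene and 24 (10.8%) lay within 500 bp of a protein-coding gene end. Over all 9086 merged regions, pericentric ones included, the shares were higher, at 66.5% and 37.3%. On 3L 3 overlapping genes, Ank2, CG32373 and CG44195, shared 4 members, and CG34353 on 3R had 3. The region at 3L 2063746 to 2069696 in sls, the titin-like gene of the muscle sarcomere, was 5951 bp wide, with folds of 3.51 to 5.03. The region in Ubi-p63E, the polyubiquitin gene, at 3L 3899627 to 3901685, had folds of 3.25 to 4.85. It was chosen after its values were seen, as were the mucin genes. Of 19 genes with a Muc or Mur symbol, 5 were overlapped: Muc14A by 3 members, and Muc30E, Muc68Ca, Muc68E and Mur2B. A region called in any library overlapped 11 of the 19. Over all protein-coding genes the shares were 1.48% for members and 30.5% for a region called in any library. Mucins are secreted proteins with long repeated coding stretches.

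None of 20 listed wing disc and regeneration genes, which include the patterning genes wg, dpp, en, ptc, ap, vg and ct and the damage-responsive puc, Ilp8, Ets21C and Mmp1, had a member region in its body. A region called in any library overlapped 17 of the 20. Members overlapped 1.48% of all protein-coding genes, so none of 20 is close to that share. The zld locus itself had none of the members. The list and the other lists were drawn up with earlier results of these data known.

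Position changed with the number of calling libraries. A protein-coding gene began or ended within 500 bp of 43.0% of the regions called in 1 library, 24.1% of those called in 4, 9.13% of the 219 called in 7 and 9.90% of the members (58 of 586, 95% exact binomial interval 7.60 to 12.6). The histone locus supplied 32 of the 58, and without the tandem arrays the share was 4.90%. Overlap with a protein-coding gene fell from 73.6% of regions called in 1 library to 41.1% in 7 and 39.2% (35.3 to 43.3) in 8. The members were in these respects close to the regions that 1 library lacked.

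**Figure D3:**
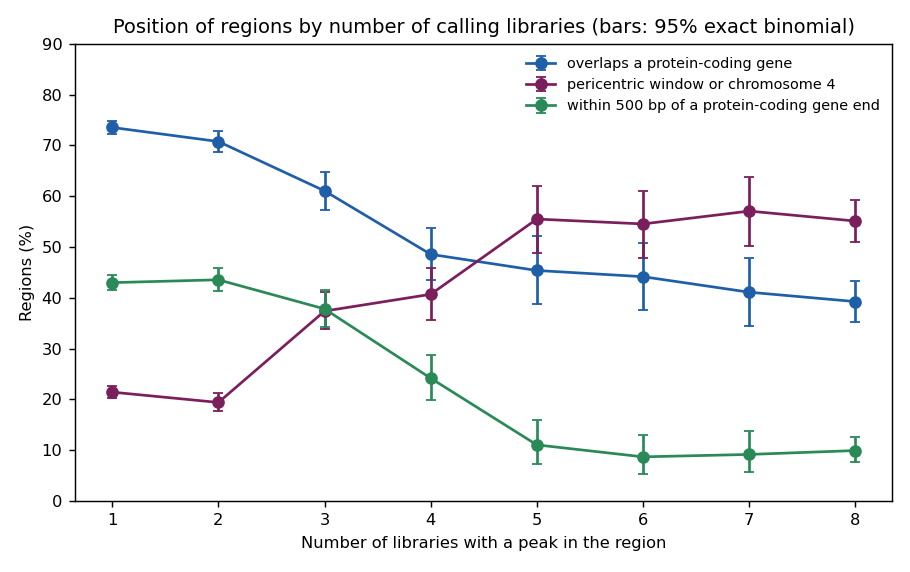
Percent of merged regions that overlap a protein-coding gene, lie in a pericentric window or on chromosome 4, or lie within 500 bp of a protein-coding gene end, by the number of libraries with a peak in the region; bars are 95% exact binomial intervals over regions. The share near gene ends drops from 43.0% in regions of 1 library to 11% in those of 5, and lies between 8.66% and 9.90% from 6 to 8.

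Members were wide, with a median of 1715.5 bp against 471 bp over all regions and 1298 bp over regions called in 7 libraries. A region fed by more lists is the union of more peaks, so width is partly set by the choice of members. More peaks than libraries lay in 300 members, or 51.2%. The widest was at 3L 118 to 19683, at the distal tip of the arm. It was 19566 bp long and had folds from 1.5 to 2.97. Among the widest were also the regions at 3L 7684352 to 7691003 in Ank2 and at X 7023758 to 7030207 in CG12541.

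The threshold of the caller left some members only just inside. The lowest −log10 q-value in any list was 1.49 for the region at 2L 6995782 to 6997206 in uif, 1.57 for X 11099547 to 11102897 in CG42249, 1.58 for 3R 5002411 to 5003466 in plh, 1.74 for 2R 1456821 to 1458465 and 1.77 for 3L 27926982 to 27928236. Just outside are the regions called in 7 libraries. Their mean percentile of fold within the calling lists had a median of 54.3, against 71.3 for the members, and their median fold was 2.03 against 2.27. These differences are partly set by the choice of members, since fold bears on the calls.

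Within the lists the members ranked high but not uniformly so. Each member passed the caller's threshold in every list and is represented by its best peak. A high rank is thus partly set by the choice of members. The median percentile of fold was 72.6 and 81.6 in wild-type undamaged discs, 80.3 and 85.2 in wild-type damaged discs, 83.2 and 73.4 in Zelda-GFP undamaged discs and 61.0 and 61.1 in Zelda-GFP damaged discs. The Zelda-GFP damaged lists were lowest, with 215 and 208 members under the 50th percentile, against 64 to 157 in the other libraries. Percentiles depend on what else a list holds, so they do not compare signal between lists. Comparisons between groups therefore used the rank of each member among the same 586 regions of a library.

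At most members the ranks of the genotypes overlapped. Ranks of the 4 Zelda-GFP and the 4 wild-type libraries did not overlap at 69 members, or 11.8%, of which 30 (5.12%) were higher and 39 (6.66%) lower in Zelda-GFP discs. A single region cannot pass an adjusted threshold with 70 labelings of 8 libraries, so these are descriptions. Without wild-type undamaged replicate 2 the count was 118 of 667 regions. Leaving out any 1 library loosens the criterion and gave 86 to 118. X had 16 of the 30 higher and 12 of the 39 lower regions, and 22.7% of all members. The largest rise was at X 23309847 to 23310346 in the rRNA-bearing chain, where ranks were 139, 43, 319.5 and 165.5 in the wild-type libraries and 444, 444, 489.5 and 473.5 in the Zelda-GFP ones. Folds there were 1.64 to 2.29 without the tag and 2.95 to 3.23 with it.

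A pair of neighbouring regions in rg, a gene for a large anchor protein of signalling complexes, was also higher. At X 5101190 to 5103816 the wild-type ranks were 148, 167.5, 178 and 213 and the Zelda-GFP ranks 385, 404, 390 and 462. Coverage differed more than fold there. Pileup over background was 2.08, 2.00, 2.20 and 2.28 without the tag and 8.14, 7.13, 5.76 and 6.99 with it, and expected coverage was 1.00 to 1.10 and 2.23 to 3.04 times background. At X 5096404 to 5097732 the wild-type ranks were 384.5, 84, 104 and 338 and the Zelda-GFP ranks 491, 467, 438 and 494. Pileup there was 1.81 to 2.73 and 5.73 to 9.92 times background. The other leading regions were at 2L 3257684 to 3258974, outside any gene, where pileup was 1.71 to 2.45 and 5.34 to 9.88 times background, and at 3R 1054405 to 1056146 in Myo81F. In each of these 4 regions the lowest tagged rank stood above the highest untagged one, which the choice of the regions requires.

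Among the regions lower in Zelda-GFP discs, that at 3L 22743706 to 22744638 in CG7369 had ranks of 542, 565, 535 and 541 without the tag and 106, 401.5, 277 and 347 with it. Its folds were 4.0 to 6.43 and 1.94 to 2.70. At X 21995896 to 21998079 the ranks were 489, 450, 505 and 467 against 60.5, 416.5, 277 and 21. The other 3 of the leading 5 were at X 9508309 to 9509426 in CG32700, X 76060 to 77230 and X 21964178 to 21965042. At X 76060 the direction held for fold but not for pileup, which was 2.39, 3.02, 3.69 and 4.23 times background without the tag and 4.69, 4.61, 4.02 and 4.26 with it, over an expected coverage of 1.00 to 1.22 and 1.95 to 2.24. All 5 had folds under 3 in every tagged library. Regions of named regulators on this side, chosen after their values were seen, were those of nmo, a Nemo-like kinase gene of Wnt signalling, InR, the insulin receptor gene, and vtd, the cohesin kleisin gene. In InR, at 3R 21609615 to 21611582, ranks were 556, 567, 559 and 563 without the tag and 458, 538, 485 and 520 with it.

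**Figure D4:**
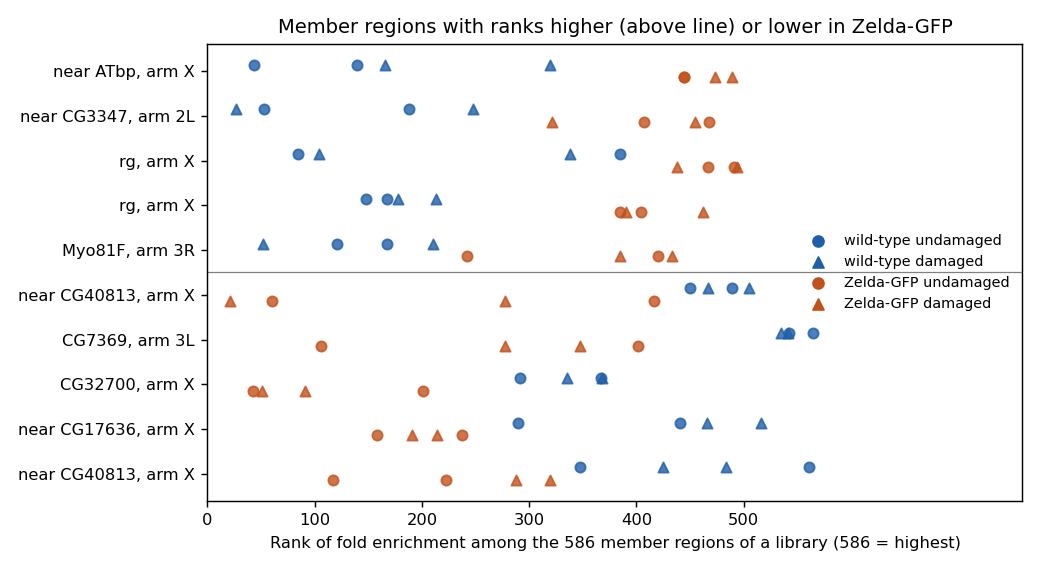
Rank of fold enrichment among the 586 members in each library (586 is the highest) for the 5 regions with the largest mean rank gain (above the line) and loss (below) in Zelda-GFP among those whose genotypes do not overlap; each point is 1 library, labelled by the gene overlapped or the nearest protein-coding gene. The blue and orange points are apart in all 10 rows because the regions were picked for it.

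By class, the rRNA locus had median ranks of 477, 471, 513 and 496 in the wild-type libraries and 516, 518, 532 and 523 in the Zelda-GFP libraries, which did not overlap. The chain at X 22204462 to 22383657 was also higher with the tag, at 483 to 511 against 422 to 480. The 5 members at 4 1278788 to 1320061 were lower, at 330 to 437 against 455 to 538. Over all 8 members of chromosome 4 the genotypes overlapped, at 426 to 500 against 498 to 544.5. In the histone locus, wild-type undamaged discs had the lowest median ranks, 68 and 40, against 154 and 123 in wild-type damaged discs. Zelda-GFP discs had 183 and 112 undamaged and 114 and 142 damaged. The wild-type undamaged libraries thus lay below the other 6, whose groups overlapped. Of the 23 chains, 3 separated the genotypes, where 11.8% of single members did. Besides those at X 22204462 and on 4, it was the chain of 50 members that bears the rRNA locus. Its median ranks were 453 to 482.5 with the tag against 346.5 to 445.

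**Figure D5:**
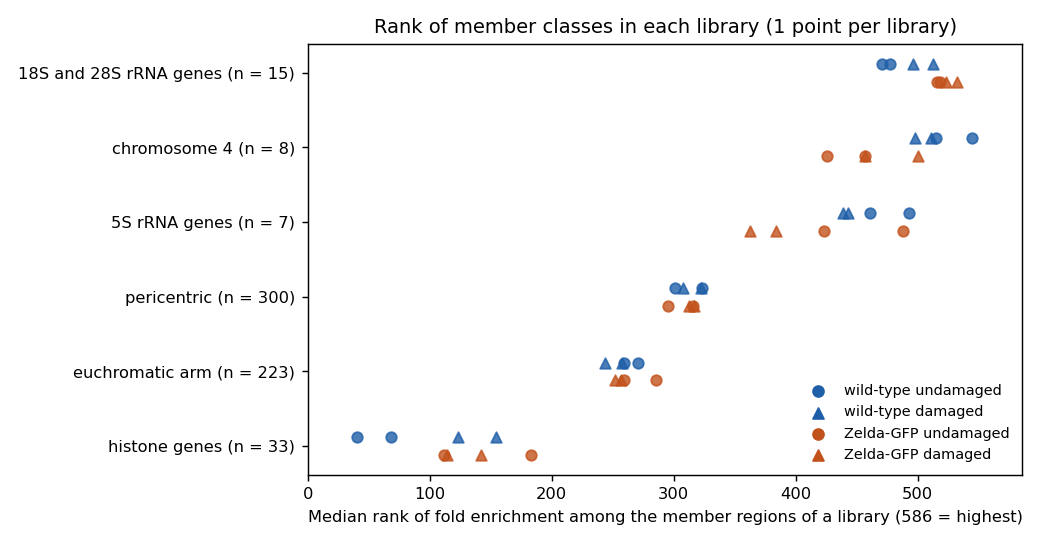
Median rank of fold enrichment among the 586 members of a library (586 is the highest) for each class of members, 1 point per library, blue for wild type and orange for Zelda-GFP, circles for undamaged and triangles for damaged discs. The rRNA locus lies at 471 to 532 and the histone locus at 40 to 183, while the pericentric and euchromatic classes lie near the middle. The pericentric and euchromatic classes hold 300 and 223 of the 586 ranked members, which partly fixes their medians there.

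Fewer members separated the conditions. Ranks of the 4 damaged and 4 undamaged libraries did not overlap at 24 members, or 4.1%, with 14 (2.39%) higher and 10 (1.71%) lower after damage. Leaving out any 1 library but wild-type damaged replicate 2 (30) raised the count to at least 40 and at most 50. This loosens the criterion and enlarges the set of members. Those described next were chosen after their values were seen. The region at 3R 21307729 to 21309678 in lncRNA:Hsromega, the noncoding stress RNA that organises nuclear omega speckles, had ranks of 242 and 465 in wild-type undamaged and 328.5 and 416.5 in Zelda-GFP undamaged discs. After damage the ranks were 549 and 526 in wild-type and 551 and 557 in Zelda-GFP discs. Its folds were 2.23 to 3.01 undamaged and 3.87 to 5.10 damaged, and its summits lay within 8 bp. The other member in the same gene, at 3R 21305747 to 21307358, had overlapping ranks. On the other side stood the region at 3L 15998221 to 15999826 in hzg, with ranks of 400, 445, 359 and 339 undamaged and 98, 191.5, 36 and 32.5 damaged.

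Summits were used to ask whether the libraries peaked at the same base. The 8 summits of a member spanned a median of 492.5 bp, and 263.5 bp in the 286 members with exactly 1 peak per library. They fell within 100 bp of each other in 108 members. Pairs of libraries of different condition lay 26.7 bp further apart on average (372 bp) than pairs of the same condition (345 bp), the most of 35 ways to split the libraries. The one-sided exact permutation p was 0.0286, the smallest possible, and 0.114 when adjusted over 4 tests. This did not hold after adjustment. The difference was 7.94 bp without wild-type undamaged replicate 2, and the unadjusted exact permutation p also rose above 0.05 without any 1 of the 4 damaged libraries (11.5 to 18.3 bp). Pairs of different genotype lay 23.3 bp further apart (371 against 347 bp), with 2 of the 35 ways at least as far apart. Here the one-sided exact permutation p was 0.0571, or 0.114 adjusted. It was 7.54 bp without Zelda-GFP undamaged replicate 2 and 37.2 bp without wild-type damaged replicate 2.

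Peak width in the members showed no detectable difference between groups. The median width of the best peak was 827.5 and 840.5 bp in wild-type undamaged, 999 and 887 bp in wild-type damaged, 1041.5 and 878.5 bp in Zelda-GFP undamaged and 924 and 814.5 bp in Zelda-GFP damaged discs. The mean was 915 ± 95.8 bp (SD, n = 4) with the tag and 888.5 ± 78.0 bp (SD, n = 4) without it, and the difference of 26.1 bp lay within the spread, with a two-sided exact permutation p of 0.657 (0.876 adjusted). Damaged and undamaged libraries differed by 9.12 bp, with an exact permutation p of 0.886 before and after adjustment. The tag difference was 126 bp in undamaged discs and -73.8 bp in damaged discs. The difference between these was not tested.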

How the data were processed

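CUT&RUN peak lists of 8 libraries were used, 1 list per library. Per the submitters' processing notes, Bowtie2, SAMtools, Picard, deepTools and MACS2 were used on build dm6. Peak names in the deposited files record duplicate marking before calling. Settings, a control in calling and the treatment of multiply mapping reads are not given in the sources used here. The deposited fold enrichment is a linear ratio of summit pileup to local expected coverage. The deposited −log10 p-values and −log10 q-values are the caller's. The deposited score is 10 times the −log10 q-value and was not used. Peak summits were taken from the offset column in the deposited lists.

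Peaks sharing at least 1 bp were merged with Python 3.11.15 and pandas 2.3.3. Depth in reads is unknown. Pileup and expected coverage were recovered from fold and p under a Poisson tail, and pileup came out whole, within 0.02 or a relative 0.0002, for 100% of the peaks. Gene positions and symbols came from a RefSeq table of Release 6, the assembly of dm6; it gives no strand or exons, so regions were placed by gene only. Tandem arrays were bounded by their annotated genes with 5 kb on each side. Tests were exact permutation tests over libraries, Benjamini-Hochberg adjusted over 4. The steps were tested on simulated lists.

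Named regions are the leading 10 by mean within-list percentile of fold, the 5 widest, the largest chains, genes with 3 or more members, the 5 nearest the threshold, and the 5 largest rank shifts by genotype in each direction. Others are marked as chosen after their values were seen. The members and lists were chosen with earlier results of these data known.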

Additional observations from a re-analysis of the deposited data

How the results depend on the processing

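Members numbered 251 with folds of at least 2, 172 with windows of 100 bp around summits, 299 with lists of equal length, 595 to 667 without 1 library each, and 1226 over all sequences, where their median width was 1529.5 bp. Without 1 library each, the share near gene ends was 8.55% to 10.1%, the share overlapping a gene 38.3% to 40%, the pericentric share 54.9% to 55.8%, the clustered share 38.6% to 42.6% and the median width 1456 to 1679 bp. With folds of at least 2, with windows and with equal lists the pericentric share was 63.7%, 65.1% and 60.5%, and 63.3% with windows 1 Mb wider. The share near gene ends was 5.58% with folds of at least 2, 5.23% with windows, 15.5% within 2000 bp and 4.90% without the arrays, an alternative chosen after seeing the data. The share overlapping a gene was 32.3% with folds of at least 2. The clustered share was 24.7% with folds of at least 2, 26.2% with windows, 24.1% with gaps of 10 kb, 62.6% with gaps of 200 kb and 33.9% without the arrays. Ranks separated the genotypes at 42 of 251 members with folds of at least 2, at 22 of 172 with windows and at 49 of 299 with equal lists. Without 1 library each, which loosens the criterion, they did so at 86 to 118 of 595 to 667. Ranks separated the conditions at 8 of 251 members with folds of at least 2, 5 of 172 with windows, 12 of 299 with equal lists and 30 to 50 without 1 library.

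The summit difference between conditions was 7.94 to 36.7 bp without 1 library each. It was 56 bp with folds of at least 2 and 42.9 bp with equal lists (exact permutation p = 0.0286 in both), and missed 0.05 with windows (0.769 bp, exact permutation p = 0.229), as a median over regions (3.07 bp, p = 0.286), without the arrays (16.1 bp, p = 0.0857) and, also chosen after seeing the data, in members with 1 peak per library (5.68 bp, p = 0.114). The genotype difference was 7.54 to 37.2 bp without 1 library and 36.3 bp with equal lists (exact permutation p = 0.0571). It reached an unadjusted exact permutation p of 0.0286 without wild-type undamaged replicate 2, wild-type damaged replicate 1 or wild-type damaged replicate 2 (18.9 to 37.2 bp), as a median (15.1 bp), without the arrays (28 bp) and with 1 peak per library (12.5 bp). Peak width by genotype turned to -55 bp with folds of at least 2 and ranged from -26.5 to 59.4 bp without 1 library. Peak width by condition turned to -29 bp with folds of at least 2, -19.1 bp with windows and -11.2 bp with 1 peak per library, and ranged from -23.0 to 49.2 bp without 1 library. The cause of these changes was not tested. With same-numbered libraries as a replicate block the width differences were the same, 26.1 bp (exact p = 0.875) and 9.12 bp (exact p = 1.0), where 4 pairs cannot go below 0.125. The numbers share no source in the labels, and deviations of log2 peak width in same-numbered libraries correlated over members at -0.0232 to 0.0850. With the replicate block, also added after seeing the data, the summit differences of 23.3 and 26.7 bp both had an exact permutation p of 0.125, the smallest that 8 splits allow.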

Other observations

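Outside the compared arms, on the Y chromosome and the unplaced sequences, 640 of 1793 merged regions were called in all 8 libraries, or 35.7%, against 6.45% on the arms. On the Y chromosome it was 38 of 412.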
